A study of Mus musculus with 12 samples.

Results

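Mouse bone marrow cells that carried the leukaemia fusion E2A-HLF were set beside cells that carried MLL-AF9, where both had also received intact PRDM16. The comparison used 4 of the 12 RNA-sequencing libraries of the series, 2 from each fusion, chosen by the fusion and the PRDM16 form given in the labels. Lineage-negative (Lin-) bone marrow cells of C57BL/6 mice were transduced with a fusion and PRDM16 together, and the culture medium was IMDM plus 15% FBS, with the cytokines IL3 (10 ng/ml), IL6 (10 ng/ml) and SCF (10 ng/ml). The cells were harvested once 10 days of selection with G418 and puromycin had followed the cotransduction. A further 4 libraries came from the same pair of fusions with PRDM16mut, a mutant form whose change the labels do not name, and are given beside the main comparison. The MLL-AF9 stable cells, which received PRDM16 after the fusion, are given for a few genes only. All groups received a fusion and a form of PRDM16, and no group without a fusion was analysed here. The labels do not say whether the 2 libraries of a group were separate cultures.

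E2A-HLF joins the activation domains of E2A (Tcf3), a basic helix-loop-helix factor of lymphoid and progenitor cells, to the DNA-binding end of HLF, a PAR bZIP factor. MLL-AF9 joins the DNA-binding end of the histone methyltransferase MLL to AF9 (Mllt3), a subunit of complexes that promote transcriptional elongation, and is known for keeping the Hoxa genes and Meis1 active in myeloid leukaemia. PRDM16 carries a PR domain and zinc fingers, is needed in blood stem cells and brown fat, and is treated by the series title as a histone methyltransferase that acts in tumor suppression.

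The values are FPKM, fragments scaled to transcript length and to library size, and the 2 fusions come from separate runs of the authors' processing: each fusion has its own deposited table, scaled on its own and built on a gene list of another date. Fusion and table therefore cannot be told apart in a direct comparison, and what follows across tables is a description with no p-value. An exact permutation test of 2 libraries against 2 could not go below 0.333 in any case. For each gene the difference is the E2A-HLF mean minus the MLL-AF9 mean of quantile-normalized log2(FPKM + 1), with ± the standard error from the 2 libraries of each group. This scale understates the difference of genes with a low FPKM. FPKM values per library are printed as deposited. A gene is called higher or lower where the 2 E2A-HLF libraries and the 2 MLL-AF9 libraries do not overlap and the difference is at least 1, a fold of 2. In bulk RNA, fewer cells of a type and less RNA per cell cannot be told apart.

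Of 10605 genes tested, 843 (7.95%) were called higher in E2A-HLF cells and 1025 (9.67%) were called lower, 17.6% in either direction. With the values as deposited the counts were 987 higher and 951 lower, and with libraries scaled to the same median they were 749 and 1139. A difference of at least 4-fold was found for 189 genes on the higher side and 325 on the lower side. The 2 groups did not overlap for 9264 genes (87.4%), so lack of overlap alone selected little. Replicates lay close together, with a median absolute log2 gap of 0.06 in E2A-HLF and 0.10 in MLL-AF9 cells, against a median absolute difference of 0.43 between the fusions. The median difference over all genes was 0.07. Steps between low values put MLL-AF9 replicate 2 at 1.63 times the depth of replicate 1, and E2A-HLF replicate 2 at 0.916 times. The precursor of ribosomal RNA, Rn45s, had a listed value of 0 in the MLL-AF9 libraries with PRDM16 and stood between 940.961 and 1554.37 FPKM in the other 10 libraries, those with MLL-AF9 and PRDM16mut in the same table included, and was left out. Those 2 libraries therefore stood apart within their own table, and whether other genes were touched was not tested.

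**Figure D1:**
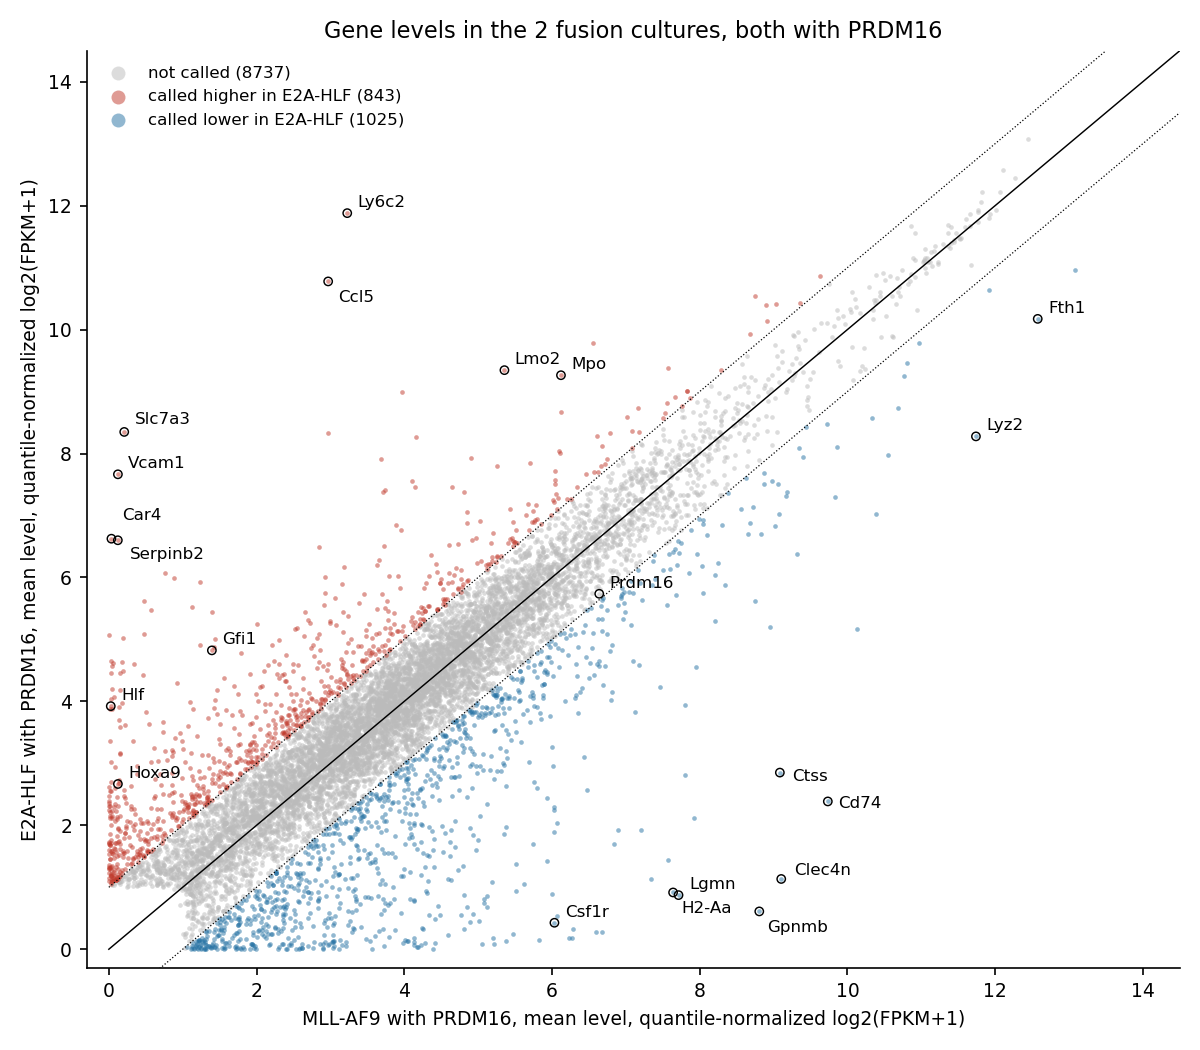
Each point is a gene, with its mean quantile-normalized log2(FPKM + 1) in MLL-AF9 cells with PRDM16 on the x axis and in E2A-HLF cells with PRDM16 on the y axis, and the dotted lines mark a difference of 1. Of 10605 genes, 843 in red are called higher in E2A-HLF cells and 1025 in blue are called lower, and Ly6c2 and Gpnmb stand farthest from equality on either side.

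The genes that make up the fusions were compared with the labels. The tables hold 1 value per gene symbol and do not separate fusion from endogenous transcript. Hlf, whose 3' end is part of E2A-HLF, stood at 14.9 and 14.9 FPKM in E2A-HLF cells and at 0.0210 and 0.00969 in MLL-AF9 cells, a difference of 3.90 ± 0.01. Tcf3, the E2A gene, was listed at 169 and 166 FPKM against 21.6 and 25.7. Both were therefore high in the libraries labelled E2A-HLF and low in the others. Mllt3, whose 3' end is part of MLL-AF9, did not mark its fusion: it stood at 3.29 and 3.71 FPKM in E2A-HLF cells and at 1.03 and 0.989 in MLL-AF9 cells, a difference of 1.09 ± 0.06. With PRDM16mut the same gene differed by 0.18. Prdm16 was at 49.2 and 56.5 FPKM in E2A-HLF cells and at 83.9 and 119 in MLL-AF9 cells. Its difference of -0.90 ± 0.24 did not reach the size of a call, but did at equal medians (-1.06), without E2A-HLF replicate 2 (-1.03) and without MLL-AF9 replicate 1 (-1.10). Both fusions had Prdm16 transcript, with more in the MLL-AF9 libraries. With PRDM16mut the order was the other way, at 56.6 and 43.5 FPKM against 29.5 and 30.1, and the difference in the effect of form between the fusions was -1.63 (SE 0.22, adjusted p = 1.01e-04 in limma). Every other difference in the effect of PRDM16 between the fusions has this unequal level of the Prdm16 transcript beside it, and its part in them was not tested. Ptprc, the pan-leukocyte antigen CD45, stood at 54.5 and 57.4 FPKM against 46 and 43.5.

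The gene with the largest difference was Ly6c2, which encodes the monocyte surface antigen Ly6C. It stood at 3155 and 2966 FPKM in E2A-HLF cells and at 8.39 and 7.35 in MLL-AF9 cells, a difference of 8.65 ± 0.14. With PRDM16mut Ly6c2 stood at 1600 and 1735 FPKM against 1195 and 1164 and was not called (0.58). In the MLL-AF9 stable cells with PRDM16 it was at 1398.5 and 1397 FPKM. Of these groups only MLL-AF9 cotransduction with PRDM16 was therefore low. Ly6c2 shares reads with its near-identical neighbour Ly6c1, which was also called higher, at 107 and 97.7 FPKM against 36.6 and 34.3. Slc7a3, a transporter of arginine and lysine, stood at 307 and 291 FPKM against 0.268 and 0.113, a difference of 8.14 ± 0.09. Ccl5, a chemokine for T cells and monocytes, stood at 1608 and 1589 FPKM against 5.28 and 7.79 (7.81 ± 0.22). Vcam1, an adhesion molecule that binds integrins, stood at 188 and 197 FPKM against 0.125 and 0.0769 (7.54 ± 0.07). The MLL-AF9 libraries were under 1 FPKM for Slc7a3 and Vcam1, and had a low but measurable level of Ly6c2 and Ccl5.

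Car4, a membrane-bound carbonic anhydrase, stood at 97.5 and 95.5 FPKM in E2A-HLF cells and at 0.0257 and 0.0158 in MLL-AF9 cells (6.59 ± 0.01). Serpinb2, an inhibitor of plasminogen activators, stood at 97.7 and 92.3 FPKM against 0.131 and 0.0716 (6.48 ± 0.05). Nebl, an actin-binding protein, followed at 61.7 and 72.0 FPKM against 0.635 and 0.813 (5.31 ± 0.15). In all 3 the libraries of a group lay within a small part of the gap between the groups. Rprm, the cell cycle regulator Reprimo, differed by 5.15 ± 0.02, the activation antigen Cd69 by 5.12 ± 0.24 and the neutrophil chemokine Cxcl3 by 4.69 ± 0.10. Xlr was listed at 0 in both MLL-AF9 libraries, so no fold is given, and stood at 33.5 and 32.5 FPKM in E2A-HLF cells. Stfa3, a stefin that inhibits cysteine proteases, stood at 45.1 and 42.9 FPKM against 0.780 and 0.320 (4.9 ± 0.26).

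The 12 largest differences in the other direction are given next, except for H2-Aa, which is given below with the MHC class II genes. Gpnmb, a transmembrane glycoprotein of macrophages, stood at 0.352 and 0.622 FPKM in E2A-HLF cells and at 493 and 529 in MLL-AF9 cells, a difference of -8.20 ± 0.13. Clec4n, the fungal receptor Dectin-2, stood at 0.921 and 1.55 FPKM against 654 and 602 (-7.97 ± 0.20). Cd74, the invariant chain that escorts MHC class II, stood at 4.14 and 4.93 FPKM against 897 and 977 (-7.35 ± 0.12). Several proteases stood among the 12. Lgmn, the lysosomal endopeptidase legumain, differed by -6.84 ± 0.07, and the cathepsins Ctsh, Ctss and Ctsj by -6.40 ± 0.02, -6.23 ± 0.02 and -6.13 ± 0.12. Anpep, the aminopeptidase CD13, differed by -6.32 ± 0.11, and Mpeg1, a pore-forming protein of macrophages, by -6.21 ± 0.09. Mmp12, the macrophage elastase, stood at 0.0814 and 0.124 FPKM against 78.4 and 72.6 (-6.09 ± 0.07). Trem2, a lipid-sensing receptor of macrophages, stood at 0.133 and 0.0967 FPKM against 70.2 and 76.4 (-6.04 ± 0.07).

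Across the list of monocyte and macrophage genes, 19 of the 30 tested were called lower in E2A-HLF cells and 5 were called higher, with a median difference of -2.31 against 0.07 over all genes. In this and the other lists only members past the filter are counted, and a member that passed through 1 group alone had to differ. Csf1r, the receptor for the macrophage growth factor, stood at 0.273 and 0.285 FPKM in E2A-HLF cells and at 60.2 and 67.2 in MLL-AF9 cells (-5.61 ± 0.07). Its ligand Csf1 stood at 1.61 and 1.69 FPKM against 42.0 and 45.7 (-4.13 ± 0.05), so receptor and ligand were both low with E2A-HLF. Lyz2, the lysozyme of monocytes and macrophages, stood at 294 and 270.5 FPKM against 3988 and 4046, a difference of -3.46 ± 0.07. The 5 called higher were Ly6c2, Ly6c1, Ms4a6b, the chemokine receptor Ccr2 and the endotoxin receptor Tlr4, of which Ly6c2 and Ccr2 are known markers of inflammatory monocytes rather than macrophages. Ccr2 and Tlr4 were close to the limit, at 1.07 and 1.01, and Ccr2 came under it without MLL-AF9 replicate 2 (0.94), as did Tlr4 without E2A-HLF replicate 2 (0.96) or MLL-AF9 replicate 1 (0.98). Summed over the 35 listed genes, the E2A-HLF libraries held 3809 and 3585 FPKM, of which Ly6c2 alone made up 3155 and 2966. The MLL-AF9 libraries held 6929 and 6947, of which Lyz2 made up 3988 and 4046. Of the 35 genes 5 were under 1 FPKM in all 4 libraries. With PRDM16mut 20 of the same 30 genes were lower in E2A-HLF cells and 2 higher, with a median of -2.08.

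MHC class II genes were also low in E2A-HLF cells with PRDM16, whereas with PRDM16mut the fusions had nearly equal sums. Of 10 tested genes 8 were called lower in E2A-HLF cells and 1 was called higher, with a median of -1.75. H2-Aa, an alpha chain of class II, stood at 0.885 and 0.878 FPKM in E2A-HLF cells and at 199 and 217 in MLL-AF9 cells (-6.72 ± 0.07). H2-Eb1 and H2-Ab1, beta chains, differed by -5.53 ± 0.10 and -5.28 ± 0.07. Ciita, the master regulator of class II transcription, stood at 0.0198 and 0.0389 FPKM against 2.05 and 2.33 (-1.67 ± 0.04). The 1 gene on the other side was H2-Ob, a chain of the class II modulator DO, at 4.46 and 3.73 FPKM against 0.609 and 0.750 (1.56 ± 0.12). The sum over the 11 listed genes was 53.7 and 49.9 FPKM in E2A-HLF cells against 1371 and 1499.7 in MLL-AF9 cells, and with PRDM16mut it was 91.5 and 95.2 against 73.8 and 75.0. With PRDM16mut 3 of the 10 genes were called higher and none lower, and 9 of the 10 had a difference in the effect of PRDM16 below 0 that passed limma's test, where 35.5% of all genes did.

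Most genes of dendritic cells followed the class II genes in the PRDM16 libraries, with 10 of 15 called lower and 4 called higher (median -1.36). The 4 called higher were Runx2 (2.53 ± 0.06), Flt3 (2.19 ± 0.04), Tcf4 (1.07 ± 0.14) and Ccr2 (1.07 ± 0.13). Tcf4 came under the limit without MLL-AF9 replicate 2 (0.95). Among those called lower were the next 4 genes. Ccl17 and Ccl22, chemokines of mature dendritic cells, differed by -3.39 ± 0.21 and -3.31 ± 0.03. The migration receptor Ccr7 stood at 0.107 and 0.0731 FPKM against 7.08 and 7.43 (-2.98 ± 0.04), and the maturation marker Cd83 at 0.0588 and 0.0899 against 7.09 and 6.43 (-2.91 ± 0.08). With PRDM16mut these last 2 genes were under 1 FPKM in all 4 libraries of both fusions. The summed level of the 25 listed genes was 191 and 187 FPKM against 283 and 292, and 10 of them were under 1 FPKM in all 4 libraries. The macrophage list differed in the same direction, and its part in the class II and dendritic differences was not tested.

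Interferon-stimulated genes, which cells raise against viruses, were lower in E2A-HLF cells: 20 of 31 were called lower and 1 was called higher, with a median of -1.40. Ifi27l2a stood at 1.88 and 2.90 FPKM in E2A-HLF cells and at 116 and 117 in MLL-AF9 cells (-5.13 ± 0.20). Zbp1, a sensor of nucleic acids, differed by -3.27 ± 0.03, and Usp18, the protease that removes ISG15, by -2.79 ± 0.08. Oasl2 stood at 0.629 and 0.896 FPKM against 9.64 and 10.0 (-2.67 ± 0.09). Summed over the 34 listed genes the libraries held 5423 and 5032 FPKM against 6963 and 7306. The direction was the other way with PRDM16mut, where 12 of the 31 were called higher in E2A-HLF cells, 1 was called lower and the median was 0.80. Oasl2 then stood at 19.5 and 20.7 FPKM in E2A-HLF cells and at 2.42 and 2.26 in MLL-AF9 cells. In limma 30 of the 31 genes had a difference in the effect of PRDM16 below 0 with an adjusted p under 0.05, where 35.5% of all genes did. Ifi203 was the gene called higher with PRDM16, at 7.93 and 8.12 FPKM against 1.70 and 1.51 (1.68 ± 0.08). Gbp2, an interferon-induced GTPase outside the list, stood at 3.20 and 2.98 FPKM against 41.1 and 38.4 with PRDM16, and at 15.5 and 15.9 against 1.52 and 1.71 with PRDM16mut.

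Neutrophil granule genes were described by granule type. Primary granules form at the promyelocyte stage, and secondary and later granules as neutrophils mature. Of 15 primary granule genes 10 were called higher in E2A-HLF cells and none lower, with a median of 1.24. Under both other scalings 8 were called higher and 1 lower. Gfi1, the repressor that drives granulocyte differentiation, stood at 28.1 and 27.5 FPKM in E2A-HLF cells and at 1.23 and 2.01 in MLL-AF9 cells (3.43 ± 0.21). Mpo, myeloperoxidase, stood at 561 and 526 FPKM against 61.3 and 74.7 (3.14 ± 0.14). Elane, neutrophil elastase, stood at 56.6 and 56.0 FPKM against 13.1 and 14.3 (1.88 ± 0.04), and the protease Ctsg differed by 1.90 ± 0.01. The protease inhibitors Cst7 and Serpinb1a differed by 2.61 ± 0.11 and 2.54 ± 0.03. These differences were on the other side with PRDM16mut, where 10 of the 15 were called lower in E2A-HLF cells and 1 higher (median -1.36). With the mutant form Elane stood at 2.79 and 3.35 FPKM in E2A-HLF cells and at 2697 and 2655 in MLL-AF9 cells.

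Of 26 secondary and late granule genes 12 were called lower and 7 higher with PRDM16, with a median of -0.77. Those on the lower side held the phagocyte oxidase subunit Cybb, at 0.121 and 0.169 FPKM against 43.9 and 42.2 (-5.23 ± 0.06), the chitinase-like protein Chi3l1 (-5.02 ± 0.09) and the gelatinase Mmp9 (-4.06 ± 0.08). Lyz1 stood at 15.0 and 15.2 FPKM against 254 and 219 (-3.85 ± 0.08), and the collagenase Mmp8 at 1.29 and 1.20 against 8.91 and 7.53. The classical secondary granule genes were near the bottom of the scale in both fusions with PRDM16. Ltf, lactoferrin, was at 0.121 and 0.150 FPKM against 1.68 and 1.78, and Camp, the cathelicidin, at 0.313 and 0.114 against 1.63 and 1.68. Those on the higher side were led by stefins, whose near-identical copies share reads and are uncertain as single genes. Stfa1 stood at 820.0 and 764 FPKM against 109.5 and 81.1 (3.21 ± 0.21). BC100530, another stefin-like gene, stood at 441 and 451 against 18.2 and 10.9 (5.02 ± 0.35). Stfa2l1 differed by 2.35 ± 0.60, and by 1.73 without MLL-AF9 replicate 2. S100a8, which encodes a subunit of the neutrophil protein calprotectin, stood at 289.7 and 287 FPKM against 503 and 402 and was not called.

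The late granule genes differed far more with PRDM16mut, where all 26 tested were called lower in E2A-HLF cells (median -5.53). S100a8 was then at 9.99 and 12.9 FPKM in E2A-HLF cells and at 29620.0 and 28541 in MLL-AF9 cells. Summed over the 30 matched genes the PRDM16 libraries held 2186 and 2108 FPKM with E2A-HLF and 2055 and 1854 with MLL-AF9. The PRDM16mut libraries held 282 and 296 with E2A-HLF and 61681 and 60651 with MLL-AF9. The sums of the 2 fusions were therefore near each other with PRDM16 and far apart with PRDM16mut.

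Genes of mast cells, basophils and eosinophils were called lower in 9 of 17 tested cases and higher in 3, with a median of -1.06. Prg2, the eosinophil major basic protein, stood at 1.19 and 1.78 FPKM in E2A-HLF cells and at 26 and 24 in MLL-AF9 cells (-3.45 ± 0.18). Gzmb, a granzyme of cytotoxic cells that mast cells and basophils can also hold, stood at 47.1 and 50.2 FPKM against 489 and 481 (-3.13 ± 0.05). Epx, eosinophil peroxidase, differed by -3.09 ± 0.13. The high-affinity IgE receptor chain Fcer1a went the other way, at 9.61 and 9.42 FPKM against 2.51 and 2.73 (1.40 ± 0.04), as did the IL-33 receptor Il1rl1 (1.23 ± 0.12). Summed over the 30 matched genes the fusions were close, at 2063 and 1969 FPKM against 1861 and 1769. Srgn, also listed among the primary granule genes, alone made up 1751 and 1657 FPKM against 909 and 824. The closeness of the sums therefore says little about the other members. Of the 30 genes 12 were under 1 FPKM in all 4 libraries and 3 were listed at 0 in all 4. With PRDM16mut 14 of the 17 tested genes were called lower in E2A-HLF cells and none higher, with a median of -3.5. Fcer1a and Il1rl1 were then lower too, by -5.58 and -2.92.

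Lymphoid lineages were all but absent from both groups. Of 21 B cell genes 18 were under 1 FPKM in all 4 libraries, and their sum ran from 6.18 to 7.59 FPKM over the 4. Of 25 T and NK cell genes 21 were under 1 FPKM in all 4 libraries, and Gzmb made up most of the sums of 53.6 and 57.2 FPKM against 506 and 498. Of 20 stromal and endothelial genes 16 were under 1 FPKM in all 4. The sums of that list, at 394 and 412 FPKM against 208 and 223, were mostly Vcam1, Thbs1 and Pecam1, which blood cells can also express. Itgam, the myeloid integrin CD11b that is part of lineage depletion panels, was present in both groups at 12.3 and 12.7 FPKM against 42.3 and 45.3 (-1.82 ± 0.04).

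**Figure D2:**
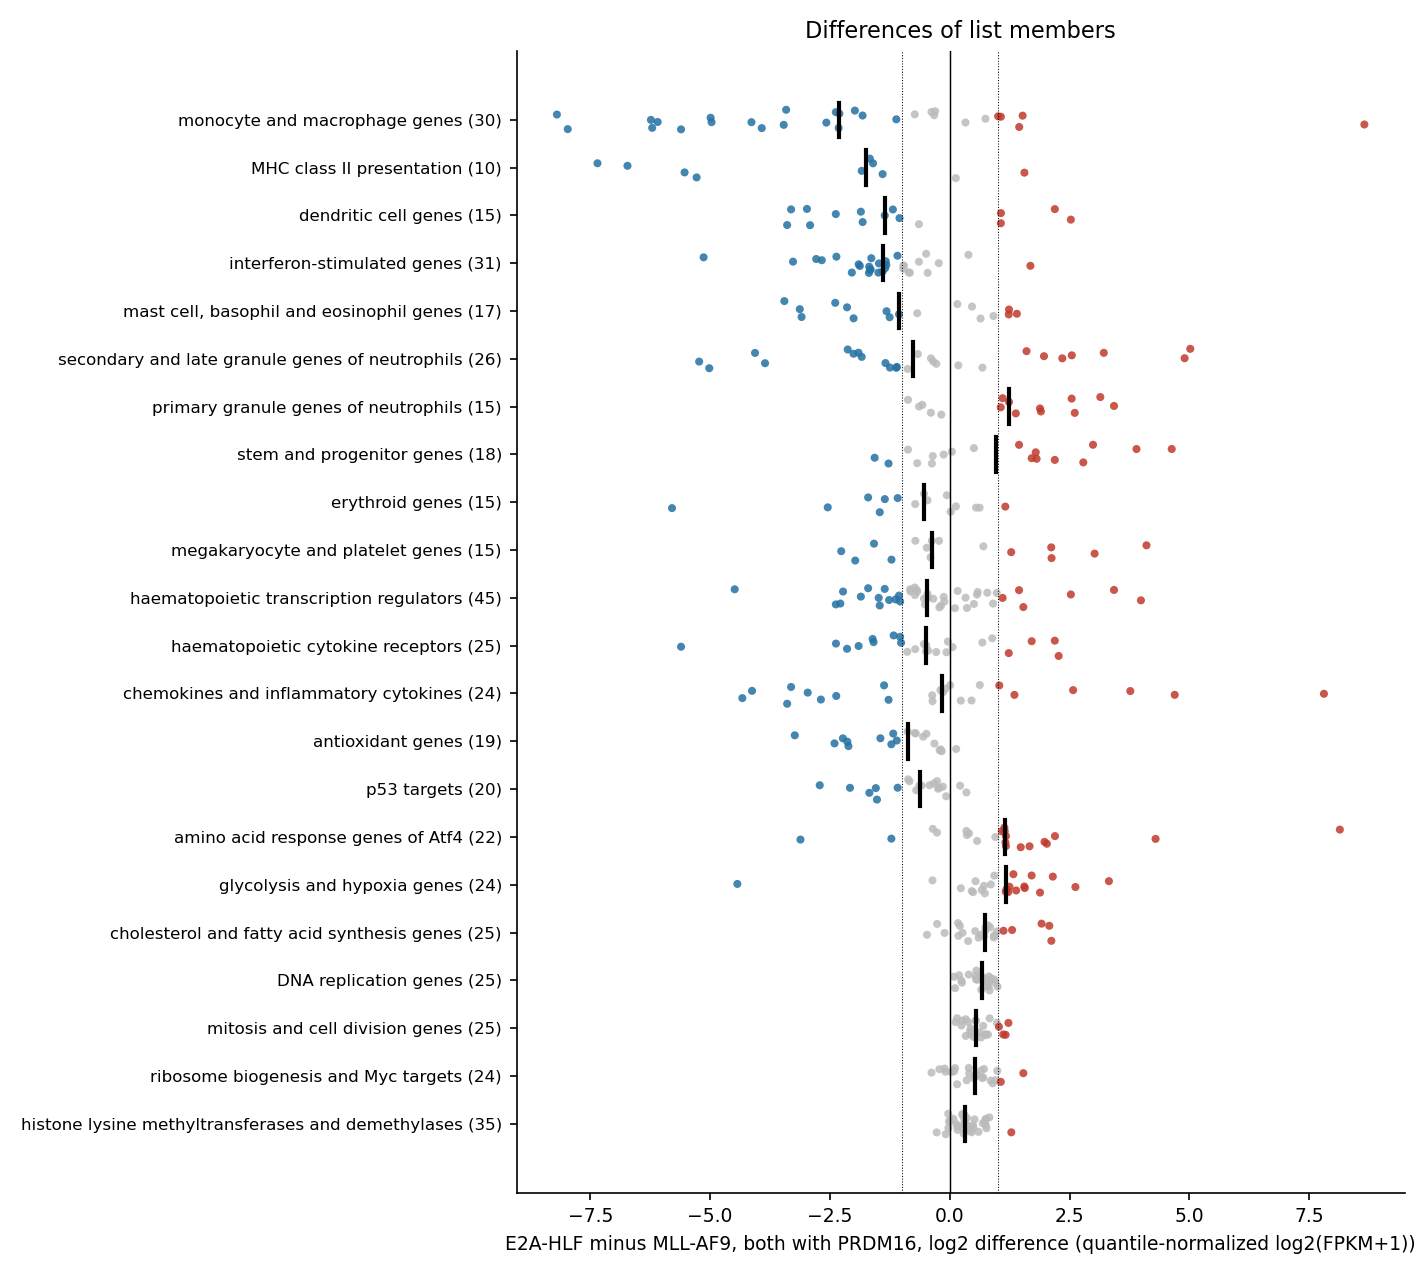
Each point is the log2 difference (E2A-HLF minus MLL-AF9, both with PRDM16) of 1 member of a gene list, grey where the gene is not called, and the black bars are list medians. Monocyte and macrophage genes centre on -2.31 and MHC class II genes on -1.75, while primary granule genes centre on 1.24 and glycolysis and hypoxia genes on 1.18.

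Stem and progenitor genes were higher in E2A-HLF cells, with 9 of 18 called higher and 2 lower (median 0.98). Hlf, part of the E2A-HLF fusion, was among the 9, so its direction was set by the choice of groups. Eltd1, an adhesion G protein-coupled receptor of endothelial and stem cells, stood at 24.4 and 25.3 FPKM in E2A-HLF cells and was listed at 0 and at 0.0359 in MLL-AF9 cells (4.63 ± 0.04). Cd34, the progenitor surface antigen, stood at 42.6 and 43.6 FPKM against 5.38 and 4.59 (2.79 ± 0.11). Flt3, a receptor of multipotent and lymphoid progenitors, stood at 4.29 and 4.2 FPKM against 0.0598 and 0.147 (2.19 ± 0.04), and Cd27 at 8.83 and 7.92 against 0.187 and 0.0760 (2.99 ± 0.10). Kit, the SCF receptor, was higher as well, at 22 and 23.4 FPKM against 5.29 and 6.07 (1.71 ± 0.09), but with PRDM16mut it differed by -0.90. The 2 genes on the lower side were Thy1 (-1.57 ± 0.11) and Tek, the angiopoietin receptor, at 0.0105 and 0 FPKM against 1.28 and 1.53. With PRDM16mut 12 of the 18 were called higher, Hlf again included, and the median was 2.70. The list as a whole, unlike Kit, was therefore on the same side with both forms. The sums over 24 genes were 1946 and 1860.1 FPKM with E2A-HLF and PRDM16 against 941 and 982 with MLL-AF9. Members not named above made up most of these sums, which therefore say little about the named genes. With PRDM16 the list median ran from 0.11 to 1.45 under the alternatives in processing.

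Of 7 genes that earlier work has named as E2A-HLF targets, 4 passed the filter and 3 of these were called higher. Lmo2, a bridging protein of transcription complexes in stem and erythroid cells, stood at 595 and 549 FPKM in E2A-HLF cells and at 41.2 and 37.6 in MLL-AF9 cells (3.99 ± 0.08). With PRDM16mut it stood at 682 and 717 FPKM against 102 and 98.6. Bcl2, the survival factor, stood at 12.4 and 13.5 FPKM against 3.86 and 3.75 (1.39 ± 0.07), and its difference with PRDM16mut was 1.52. Lmo2 and Bcl2 therefore differed in the same direction with both forms. The corepressor Tle2 stood at 1.77 and 1.64 FPKM against 0.315 and 0.441 (1.02 ± 0.06), and differed by 0.96 without E2A-HLF replicate 1. Its relative Tle6 was not called (0.75), and Anxa8, Srpx and Snai2 were under the filter. With the values as deposited and with equal medians, 2 of the 4 were called higher.

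The Hoxa genes that MLL-AF9 is known to keep active were low in MLL-AF9 cells with PRDM16. Hoxa9 stood at 5.76 and 5.69 FPKM in E2A-HLF cells and at 0.104 and 0.0957 in MLL-AF9 cells (2.54 ± 0.02). Hoxa7 stood at 2.44 and 2.48 FPKM against 0 and 0.0472 (1.73 ± 0.03), and Hoxa5 at 1.25 and 1.35 against 0 and 0.0295 (1.16 ± 0.04). These were the 3 Hoxa genes of 11 that passed the filter. They passed through the E2A-HLF libraries alone, so their direction was set by the filter and their count is no support. Hoxa10 was under the filter, at 0.846 and 0.741 FPKM against 0.105 and 0.0556. With PRDM16mut none of these 3 was called higher and 1, Hoxa5, was called lower. Hoxa10 was outside that count, because the filter used the PRDM16 libraries. With PRDM16mut it stood at 2.10 and 2.19 FPKM in E2A-HLF cells against 23.8 and 22.7 in MLL-AF9 cells. Hoxa9 was then at 18.8 and 17.8 FPKM in E2A-HLF cells and at 30.4 and 30.01 in MLL-AF9 cells. The difference in the effect of PRDM16 on Hoxa9 was 3.31 (SE 0.08, adjusted p = 4.54e-10 in limma). In the MLL-AF9 stable cells with PRDM16 Hoxa10 was at 75.2 and 76.5 FPKM and Hoxa5 at 21.9 and 22.1, so the low levels did not extend to that group.

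Outside the Hoxa cluster, MLL fusion targets did not lean to either side, with 3 of 12 called higher, 2 lower and a median of 0.07, as over all genes. Cdk6, a kinase of the cell cycle, stood at 30.5 and 42.3 FPKM in E2A-HLF cells and at 3.96 and 5.14 in MLL-AF9 cells (2.64 ± 0.28). Runx2 differed by 2.53 ± 0.06 and Mef2c, a transcription factor of lymphoid progenitors and MLL leukaemia, by 1.83 ± 0.03. Id2, an inhibitor of E proteins, was lower, at 18.3 and 17.2 FPKM against 45.5 and 44.3 (-1.36 ± 0.05). Meis1 stood at 8.82 and 8.97 FPKM against 11.4 and 10.6 and was not called (-0.43 ± 0.07), although with PRDM16mut it differed by 1.22.

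Of 15 erythroid genes 6 were called lower in E2A-HLF cells and 1 higher (median -0.54). The 6 included the globin copies Hba-a2 and Hbb-b1, which are uncertain as single genes. Tal1, a basic helix-loop-helix factor of stem and erythroid cells, stood at 11.1 and 11.3 FPKM against 36.1 and 36.5 (-1.70 ± 0.02). Gata1, the erythroid and megakaryocytic GATA factor, stood at 7.02 and 6.80 FPKM against 18.3 and 19.7 (-1.46 ± 0.03), and the membrane protein Rhag at 1.99 and 2.31 against 16.8 and 15.9 (-2.55 ± 0.08). Adult globin genes come in near-identical copies, so only their sums are read: the alpha copies summed to 18.6 and 18.1 FPKM against 271 and 249, and the beta copies to 407 and 415 against 896 and 743. Gfi1b, a repressor of erythroid and megakaryocytic development, was not called, at 13.1 and 13 FPKM against 16.3 and 19.7 (-0.54 ± 0.11). The list median was 0.29 with PRDM16mut, and it came to 0.02 with PRDM16 when low genes were kept in.

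Megakaryocyte and platelet genes went both ways, with 5 of 15 called higher and 4 lower. The platelet chemokines Ppbp and Pf4 were high in E2A-HLF cells. Ppbp stood at 288 and 272 FPKM against 16.7 and 15.9 (4.11 ± 0.05), and Pf4 at 229.8 and 217 against 30.8 and 26.3 (3.02 ± 0.13). The integrin Itgb3 differed by 2.12 ± 0.05. Selp, the platelet adhesion receptor P-selectin, was low, at 7.02 and 6.78 FPKM against 33.3 and 35.3 (-2.26 ± 0.03), as were Vwf, the von Willebrand factor (-1.97 ± 0.10), and the tetraspanin Cd9 (-1.58 ± 0.01). Ppbp and Pf4 were higher in E2A-HLF cells with PRDM16mut also, by 3.46 and 2.62, whereas Selp was then higher, at 16.7 and 17.2 FPKM against 0.952 and 0.804.

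Among 45 transcription regulators of blood cells 6 were called higher and 13 lower (median -0.46). Lmo2, Gfi1, Myc and Erg were on the higher side. Myc stood at 183 and 178 FPKM in E2A-HLF cells and at 61.4 and 66.6 in MLL-AF9 cells (1.54 ± 0.05), and Erg, an ETS factor of stem cells, at 32.6 and 34.8 against 10.8 and 11.3 (1.45 ± 0.06). On the lower side Id3, an inhibitor of E proteins, stood at 0.141 and 0.277 FPKM against 25.5 and 27.7 (-4.49 ± 0.10). Irf8, a factor of monocyte and dendritic development, differed by -2.38 ± 0.10, the macrophage factor Maf by -2.28 ± 0.08, Cebpb by -2.23 ± 0.02 and Irf4 by -1.85 ± 0.07. Several regulators of monocyte and macrophage development were thus on the same side as the macrophage genes, but Irf8 is itself on that list. With PRDM16mut Irf8 and Irf4 were not called (-0.73 and -0.38), while Maf and Cebpb were called lower (-2.59 and -3.52). The E protein inhibitors Id2 and Id3 were both lower in the cells with the E2A fusion.

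Cytokine receptors were called higher in 4 of 25 cases and lower in 9 (median -0.50). The IL-18 receptor chain Il18r1 differed by 2.27 ± 0.13. The IL-13 receptor chain Il13ra1 was lower (-2.37 ± 0.07), and so were Csf2rb2, a chain of the IL-3 receptor, at 21.4 and 20.6 FPKM against 90.2 and 98.7 (-2.14 ± 0.06), the TSLP receptor Crlf2 (-1.90 ± 0.10) and the TNF receptor Tnfrsf1b (-1.61 ± 0.04). Of 24 chemokines and inflammatory cytokines 6 were called higher and 9 lower. The higher ones held Ccl5, Cxcl3 and Ccl3, the last at 75.9 and 70.9 FPKM against 10.3 and 11.3 (2.57 ± 0.06), and the cytokine Il13 at 15.0 and 14.48 against 0.0925 and 0.152 (3.77 ± 0.03). The lower ones held Cxcl16 at 0.0674 and 0.0491 FPKM against 19.4 and 20.4 (-4.33 ± 0.03), Csf1 and the IL-1 receptor antagonist Il1rn (-2.96 ± 0.04). Of 10 immune checkpoint genes 1 was called higher, Btla (1.30 ± 0.01), and 3 were called lower. Differences above 0 were found for 6 of the 10, and the median was 0.25. Among the 3 called lower, Pdcd1, the checkpoint receptor PD-1, stood at 1.67 and 1.80 FPKM against 56.4 and 62.5 (-4.50 ± 0.07). Its ligand Cd274 stood at 4.54 and 4.46 FPKM against 12.2 and 13.4 (-1.47 ± 0.04).

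Adhesion molecules also differed in both directions, with 6 of 26 called higher and 7 lower. Itgal, the alpha chain of the leukocyte integrin LFA-1, stood at 43.3 and 42.9 FPKM in E2A-HLF cells and at 1.47 and 1.72 in MLL-AF9 cells (4.05 ± 0.05). The junctional molecule Jam3 differed by 2.35 ± 0.04, E-cadherin (Cdh1) by 1.53 ± 0.05 and Pecam1 by 1.24 ± 0.04. Itgae and Itgb7, which pair into an integrin that binds E-cadherin, were lower together, by -2.66 ± 0.03 and -2.42 ± 0.10, and Alcam differed by -2.18 ± 0.04.

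Metabolic genes separated the fusions as well. Of 24 glycolysis and hypoxia genes 13 were called higher in E2A-HLF cells and 1 lower, with a median of 1.18. The median was 0.87 with 10 called higher as deposited, and 0.72 with 9 called higher at equal medians. Egln3, an oxygen-sensing prolyl hydroxylase, stood at 169 and 166 FPKM against 16.2 and 15.9 (3.32 ± 0.03). The glucose transporter Slc2a3 stood at 78.3 and 76.8 FPKM against 11.3 and 10.7 (2.62 ± 0.05), and the hypoxia-induced genes Bnip3 and Pdk1 differed by 1.88 ± 0.06 and 1.71 ± 0.05. These 4 genes differed in the same direction with PRDM16mut, by 2.87, 2.10, 1.88 and 1.70. Ero1l, an oxidase of the endoplasmic reticulum, did not: it differed by 2.15 ± 0.07 with PRDM16 and by -0.75 with PRDM16mut. Ldhb, a subunit of lactate dehydrogenase, was the gene called lower, at 0.459 and 0.689 FPKM against 32.5 and 34 (-4.43 ± 0.09), and with PRDM16mut it stood at 17.5 and 17.1 against 3.22 and 3.71.

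Genes of the amino acid response that Atf4 is known to drive were called higher in 13 of 22 cases and lower in 2, with a median of 1.14, and 8 were called higher at equal medians. Cth, which makes cysteine from cystathionine, stood at 22.5 and 21.5 FPKM in E2A-HLF cells and at 0.181 and 0.168 in MLL-AF9 cells (4.29 ± 0.03). Psph, an enzyme of serine synthesis, stood at 48.4 and 46.6 FPKM against 8.96 and 8.87 (2.20 ± 0.03), and Asns, asparagine synthetase, at 132 and 132 against 40.1 and 43.2 (1.67 ± 0.04). Atf4 itself stood at 302 and 291 FPKM against 149 and 148. The 2 genes on the lower side were the stress factor Atf3, at 1.71 and 2.12 FPKM against 22.3 and 23.9 (-3.11 ± 0.10), and Slc7a11, a cystine transporter (-1.22 ± 0.09). With PRDM16mut 3 of the 22 were called higher and 3 lower.

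Of 25 cholesterol and fatty acid synthesis genes 5 were called higher and none lower (median 0.74). Elovl6, a fatty acid elongase, stood at 27.3 and 29.8 FPKM against 5.43 and 5.16 (2.12 ± 0.08), and Cyp51, a sterol demethylase, at 91.2 and 90.0 against 23.2 and 22.4 (1.92 ± 0.04). Antioxidant genes were called lower in 9 of 19 cases and higher in none (median -0.88). The iron storage chains were among them: Fth1 stood at 1039 and 1023 FPKM against 7679.7 and 7544 (-2.40 ± 0.02), and Ftl1 at 1847 and 1796 against 13092 and 13903 (-2.11 ± 0.01). Quantile normalization pulls in genes at the very top of the scale, and as deposited Fth1 and Ftl1 differed by -2.88 and -2.89. Hmox1, which releases iron from haem, stood at 18.1 and 18.5 FPKM against 175 and 191 (-3.23 ± 0.07). The peroxiredoxin reductase Srxn1 and the quinone reductase Nqo1 differed by -2.23 ± 0.12 and -2.14 ± 0.09. Macrophages are known for high ferritin and Hmox1, and the macrophage list moved in the same direction. Its part in these differences was not tested.

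Cell division genes differed by small amounts in 1 direction. All 25 mitosis genes and all 25 DNA replication genes had a difference above 0, with medians of 0.55 and 0.68, where 5780 of all 10605 genes were above 0. The size of a call was reached by 4 mitosis genes and by none for DNA replication, by 5 and 3 as deposited and by 2 and 1 at equal medians. All 25 of each list were above 0 under both of those scalings too. Bub1, a spindle checkpoint kinase, stood at 27.0 and 27.0 FPKM in E2A-HLF cells and at 10.3 and 10.1 in MLL-AF9 cells (1.23 ± 0.03). Top2a stood at 113 and 123 FPKM against 52.8 and 52.4, and the proliferation marker Mki67 at 36.4 and 42.8 against 16.3 and 17.4 (1.12 ± 0.13, and 0.996 without E2A-HLF replicate 2). With PRDM16mut no mitosis gene was called and the median was -0.18. All 25 mitosis genes had a difference in the effect of PRDM16 above 0 that passed limma's test, where 35.4% of all genes did. In the MLL-AF9 table Mki67 was at 48.7 and 50.7 FPKM with PRDM16mut.

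Genes linked to the restraint of division are given next. Of 20 p53 targets 6 were called lower and none higher (median -0.61). The stress hormone Gdf15 stood at 3.001 and 2.84 FPKM against 21.4 and 25.04 (-2.71 ± 0.09), and the antiproliferative factor Btg2 at 7.16 and 7.25 against 31.2 and 31.3 (-2.08 ± 0.02). The CDK inhibitor Cdkn2b stood at 3.89 and 3.65 FPKM against 15.8 and 16.7 (-1.97 ± 0.05), and Cdkn2c and Cdkn1c differed by -1.40 ± 0.18 and -1.24 ± 0.07. These were the 3 called lower of 13 CDK inhibitors and G1 cyclins, of which Cdk6 was called higher and 6 had a difference above 0, with a median of -0.10. Ribosome biogenesis genes had a median of 0.52 with 2 of 24 called, Myc and Nop56, and Nop56 came under the limit as deposited (0.97) and at equal medians (0.82). Of 19 immediate early genes 3 were called higher and 7 lower (median -0.40). The AP-1 subunits Fosb (3.09 ± 0.17) and Fos (1.77 ± 0.13) were among the higher ones. Fosl2 (-1.56 ± 0.03) and the mRNA decay factor Zfp36 (-1.69 ± 0.12) were among the lower ones.

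Histone lysine methyltransferases and demethylases, the class the series title assigns PRDM16 to, hardly differed at the transcript level. Of 35 tested genes 1 was called, the demethylase Kdm6b, at 8.81 and 9.13 FPKM against 2.32 and 3.15 (1.28 ± 0.16), and 29 of the 35 differences were above 0 with a median of 0.32. Mecom, the closest relative of PRDM16, was listed at 0 in all 12 libraries. Hmga2, a chromatin protein of fetal stem cells, stood at 4.86 and 4.96 FPKM against 0.218 and 0.171 (2.27 ± 0.04).

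**Figure D3:**
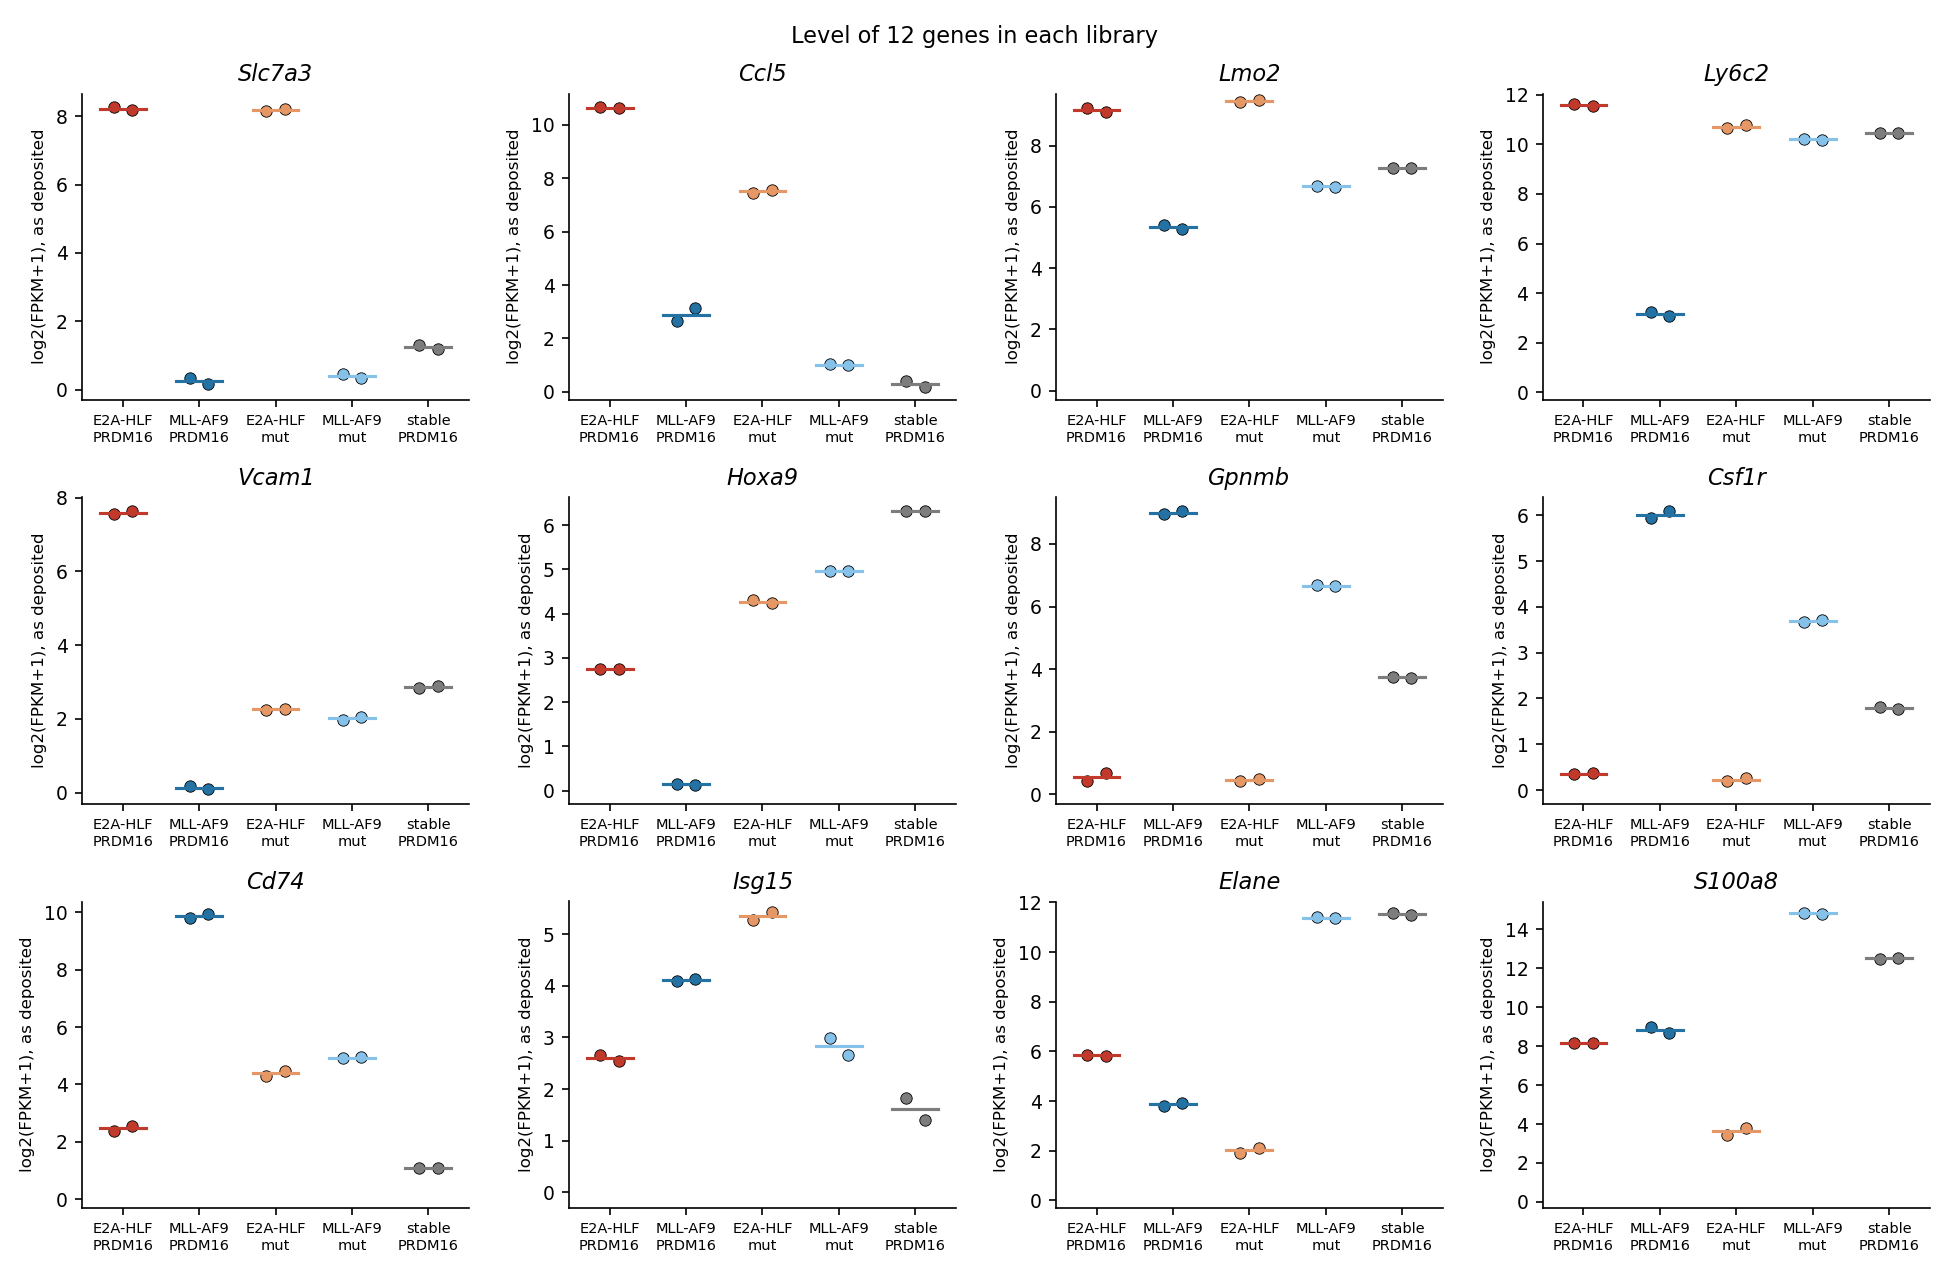
FPKM per library as deposited, as log2(FPKM + 1) on the y axis, for 12 genes in E2A-HLF and MLL-AF9 cells with PRDM16 and with PRDM16mut and in MLL-AF9 stable cells with PRDM16, where each point is a library and each line a group mean. Lmo2 and Slc7a3 are high in both E2A-HLF groups, whereas Vcam1 and Cd74 are far apart between the fusions with PRDM16 and close together with PRDM16mut.

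Setting the same fusions side by side with PRDM16mut, in 4 libraries that the main comparison does not use, separated differences seen with both forms from those seen with 1. The same 10605 genes were used, as filtered on the PRDM16 libraries. With PRDM16mut 934 of them (8.81%) were called higher in E2A-HLF cells and 911 (8.59%) lower. Of the genes called higher, 294 were called with both forms, which is 34.9% of the PRDM16 calls and 31.5% of the PRDM16mut calls. Of those called lower, 362 were called with both, which is 35.3% and 39.7%. A further 94 genes called higher with PRDM16 were called lower with PRDM16mut, and 67 went from lower to higher. The pairs of tables are the same in both comparisons, so a difference between tables would enter both.

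A small set of genes was at 10 FPKM or more in all 4 libraries of a fusion and under 1 FPKM in all 4 of the other, whichever PRDM16 form was present. They were picked after their values were seen. On the E2A-HLF side there were 10: Adcyap1r1, Cnn3, Eltd1, Hlf, Lrrn3, Meis2, Nebl, Paqr5, Ptgds and Slc7a3. Adcyap1r1, the receptor for the neuropeptide PACAP, stood at 23.0 and 23.6 FPKM with PRDM16 and at 19.8 and 18.9 with PRDM16mut, against at most 0.0315 in the MLL-AF9 cotransduction. Meis2, a homeobox relative of Meis1, stood at 15.8 and 16.5 and at 22.9 and 23.3. Of the 10 genes 7 were also under 1 FPKM in the MLL-AF9 stable cells with PRDM16 and none reached 10 there. On the MLL-AF9 side there were 17, among them App, C3, Csf1r, Gpnmb, Mmp9, Mmp12, Trem2 and the iron exporter Slc40a1. App, the amyloid precursor protein, stood at 76.0 and 77.0 FPKM with PRDM16 and at 65.7 and 66.6 with PRDM16mut, against 0.154 to 0.294 in the 4 E2A-HLF libraries. In the stable MLL-AF9 cells 3 of the 17 reached 10 FPKM, App, C3 and Gpnmb, and 4 were under 1.

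**Figure D4:**
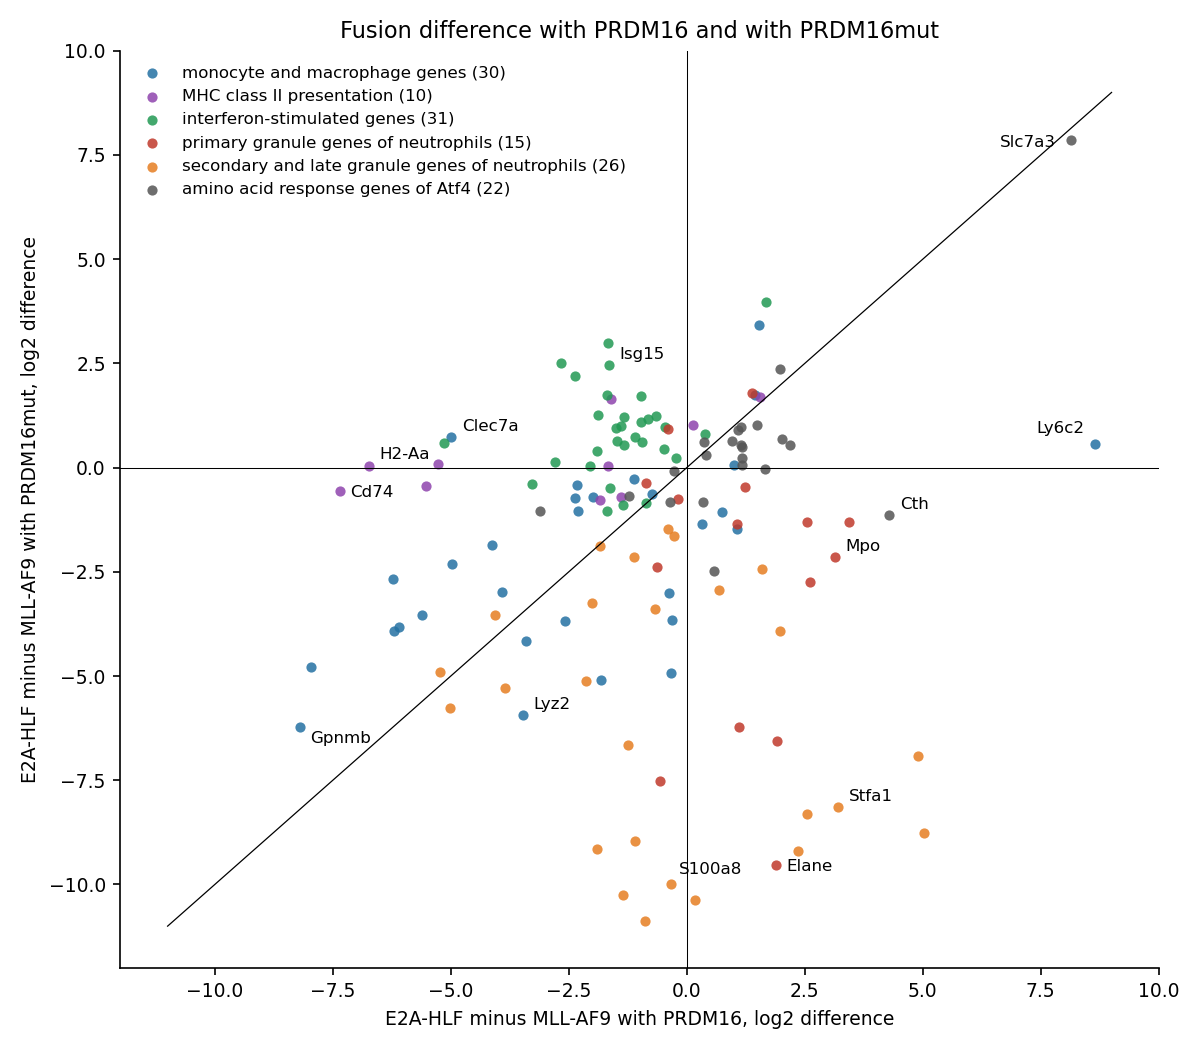
For the members of 6 gene lists, the x axis is the log2 difference between E2A-HLF and MLL-AF9 cells with PRDM16 and the y axis the same difference with PRDM16mut, and the line marks equality. Macrophage genes lie mostly at the lower left (below 0 with both forms), most interferon and MHC class II genes lie left of the line, and most granule genes lie under it, such as Elane at 1.88 and -9.53.

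The test that the design allows asks whether PRDM16, compared with PRDM16mut, moved a gene differently in the 2 fusions, since a constant offset between tables cancels. A step that touched only some libraries of a table would not cancel. In limma 3755 genes (35.4%) had a higher effect in E2A-HLF cells and 3765 (35.5%) a lower one at an adjusted p under 0.05. With a difference of at least 2-fold in addition the counts were 963 (9.08%) and 1251 (11.8%). Elane gave a difference in effect of 11.33 (SE 0.10, adjusted p = 1.53e-12): intact PRDM16 raised it by 3.82 in E2A-HLF cells, and it fell by 7.51 in MLL-AF9 cells. Car4 gave 9.25 (SE 0.12, adjusted p = 7.18e-12), with 2.80 and 3.49 FPKM in E2A-HLF and 24.1 and 26.4 in MLL-AF9 cells that had PRDM16mut. The stefin Stfa3 gave 11.75 (SE 0.23, adjusted p = 1.17e-10). Vcam1, at 3.77 and 3.83 FPKM against 2.94 and 3.15 with PRDM16mut, gave 7.21 (adjusted p = 6.09e-12). For these genes the fusions stood apart in 1 direction with PRDM16 and stood level or in the other direction with PRDM16mut.

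In the other direction Ctsj gave -7.21 (SE 0.18, adjusted p = 6.13e-10), H2-Aa -6.95 (SE 0.11, adjusted p = 3.45e-11) and Cd74 -6.87 (SE 0.11, adjusted p = 3.97e-11). Cd74 fell by 1.93 with intact PRDM16 in E2A-HLF cells and rose by 4.94 in MLL-AF9 cells. Pdcd1 gave -6.52 and Ldhb -6.48, and both had a higher level in E2A-HLF than in MLL-AF9 cells with PRDM16mut. Slc7a3 is an example of the opposite kind, with a difference in effect of 0.19 (SE 0.10, adjusted p = 0.128) that did not pass the test and a level of 284 and 296 FPKM in E2A-HLF cells with PRDM16mut.

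The promoters of genes high in E2A-HLF cells were searched for the site that PAR bZIP factors such as HLF bind, because the fusion keeps the DNA-binding end of HLF. The search used the palindrome TTACGTAA and the same letters with any base at position 5, TTACNTAA, on both strands, so that a match may read as its reverse complement, and each palindrome is also counted in the wider form. The windows shown are those of 5 genes called higher and 3 called lower, with the site in capitals, in 30 bases read 5' to 3' in the direction of the gene from RefSeq promoters of build GRCm38.p6. They were picked after their values were seen, from 26 genes called higher and 12 called lower with a site. Ptgds, Akr1c18 and Pde4b have the largest differences of the 26, Jdp2 is itself a bZIP factor, Mmp12 and Chi3l1 have the largest differences of the 12, and Ak4 and Icam4 are the 2 called genes with the palindrome.
Ptgds: gctggaacctcTTACATAAttagcagatga
Akr1c18: aacaacattcaTTACATAAagtcatgtatg
Pde4b: ggacctcaggtTTACTTAAatattcatggg
Jdp2: aggggatgcgcTTACATAAccgctcgccgt
Ak4: cggctcccggcTTACGTAAgaagcagcgag
Mmp12: taaagaatgctTTAGGTAAttgtatttaac
Chi3l1: gggtgcatggcTTACATAAcccaattgtgc
Icam4: cttcttggggcTTACGTAAaaactaaagag

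The windows lie at chr2:25469872-25469901 for Ptgds, at chr13:4150820-4150849 for Akr1c18 (both on the minus strand), at chr4:102589653-102589682 for Pde4b, at chr12:85599044-85599073 for Jdp2 and at chr4:101419262-101419291 for Ak4. Those of the genes called lower lie at chr9:7344153-7344182 for Mmp12, at chr1:134182093-134182122 for Chi3l1 and at chr9:21029243-21029272 for Icam4, all on the plus strand. All lie upstream of the start of the gene, with the site beginning between 16 bases (Ak4) and 233 bases (Mmp12) before it. Ptgds, a prostaglandin D synthase, stood at 24.2 and 24.2 FPKM in E2A-HLF cells against 0.0950 and 0 in MLL-AF9 cells (4.56 ± 0.06). Akr1c18, a steroid-reducing enzyme, stood at 46.5 and 44.9 FPKM against 1.17 and 1.15 (4.40 ± 0.03). Pde4b, a phosphodiesterase that breaks down cAMP, stood at 32.6 and 30.3 FPKM against 1.68 and 1.66 (3.56 ± 0.06). Of these 3, Ptgds and Pde4b were also higher in E2A-HLF cells with PRDM16mut, by 2.93 and 3.60, while Akr1c18 differed by -0.08. Jdp2, a bZIP repressor of AP-1, stood at 21.2 and 19.7 FPKM against 1.92 and 1.85, and the adenylate kinase Ak4 at 23.5 and 24.5 against 3.997 and 4.64.

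Promoters in the table run from 250 bases before to 50 after each start, and 8541 of the tested genes had at least 1. The wider site was in a promoter of 161 of these genes (1.89%). It was in 26 of the 640 genes called higher that had a promoter (4.06%) and in 12 of the 804 called lower (1.49%). Among genes that differed at least 4-fold it was in 11 of 147 higher (7.48%) and 4 of 249 lower (1.61%). Among genes with 1 promoter each the shares were 1.38% of all, 3.29% of those called higher and 1.25% of those called lower. The palindrome was in 20 genes, with 1 called higher and 1 called lower. Base composition moved with the size of the difference, with a median promoter GC of 60.7% over all genes and of 55.7% in those at least 4-fold higher, which also had more promoters per gene (1.45 against 1.27). The part of either in these shares was not tested, and a match is a description of the letters, not evidence of binding.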

How the data were processed

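RNA was sequenced in 12 libraries, and the authors deposited FPKM per gene symbol in 3 tables. Per the submitters' processing notes the tools were Bowtie2 2.0.0.7, TopHat2 2.0.3 and Cuffdiff, with no version given in the sources used here, on mm9. There were 23235 rows for E2A-HLF and 23309 for MLL-AF9, and 22362 symbols stood once in both. Rn45s and small RNA rows (738) were left out, and a gene was kept where 2 or more of the 4 libraries reached an FPKM of 1. Values were taken as log2(FPKM + 1) and quantile normalized over the 4 libraries. No read counts were used, so total depth is unknown and no counting interval was computed. The difference in the effect of PRDM16 was tested with limma 3.58.1 in R 4.3.3 on 8 libraries (values as deposited, moderated variance with a trend, two-sided, Benjamini-Hochberg over 10605 genes), after the procedure was tested on simulated data. Its p-values rest on the spread between libraries alone, and that spread may be technical. The comparison, the gene lists and the site searched were chosen with earlier results of these data known. Named genes are Prdm16, Hlf, Mllt3, Hoxa9, Meis1 and Gfi1b, the 12 largest and 12 smallest called differences, up to 5 called members a list and direction, and the 6 largest and 6 smallest differences in effect among called genes. Any other gene was chosen after its values were seen. The tables were joined by symbol, and 871 and 943 symbols stood in only 1 of them. A spreadsheet had turned 15 of the tested symbols into dates, and these are not named. Alternatives were other scalings, a pseudocount of 0.1, other filters, a larger difference, the replicate number as a block and leaving out each library. Results for some genes are not reported here.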

Additional observations from a re-analysis of the deposited data

Results flagged for a closer look

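The effect of PRDM16 against PRDM16mut differed between the fusions for 3755 genes with a higher effect in E2A-HLF cells and for 3765 with a lower one, by limma's test of the difference itself at an adjusted p under 0.05. Among called genes the largest such differences were those of Stfa3 (11.75), Stfa2l1 (11.64), Elane (11.33), Stfa1 (11.25), Stfa2 (10.91) and Car4 (9.25). The smallest were those of Ctsj (-7.21), H2-Aa (-6.95), Cd74 (-6.87), Pdcd1 (-6.52), Ldhb (-6.48) and Gbp2 (-5.99). The 4 stefins are near-identical copies that share reads, so single copies are uncertain. No group had enough libraries to look for a library far from the others.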

How the results depend on the processing

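With a difference of at least 2 in place of 1, the counts called higher and lower in E2A-HLF cells were 189 and 325 with PRDM16 and 239 and 347 with PRDM16mut. The other alternatives kept each count within 1.5 times its reported value. Leaving out a library gave 834 to 878 higher and 1014 to 1060 lower with PRDM16, 922 to 952 and 897 to 918 with PRDM16mut, and 3370 to 3949 and 3398 to 4001 for the difference in effect. Of 1792 values of 182 named genes under alternatives none changed sign. Of 179 called genes 7 lost the call without 1 library (Tle2, Hbb-b1, Ccr2, Tlr4, Tcf4, Mki67 and Kif11) and 8 under another scaling (Tle2, Ccr2, Tlr4, Srgn, Top2a, Kif11, Nop56 and Scd2). Prdm16 gained a call at equal medians and without either of 2 libraries. The list medians of 9 of 36 lists changed sign under some alternative. Replicate numbers are shared between groups but did not pair the libraries (correlations of deviations 0.02, 0.20, 0.01 and 0.09). With the replicate number as a block, each same-numbered pair had to differ by at least 1 in the same direction. The counts were then 710 and 928 with PRDM16 and 863 and 850 with PRDM16mut. For the difference in effect the block was a term in limma's model, and the counts were 3684 and 3696. The main limits are 2 libraries per group, no read counts, and tables made in separate runs.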
